A study of Mus musculus with 6 samples.

Results

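Small leucine-rich proteoglycans are secreted matrix proteins built around a curved stack of leucine-rich repeats. The genes described here are Aspn, Dcn, Bgn, Lum, Fmod, Prelp, Kera, Omd, Ogn and Epyc, taken as a list of names. The list was chosen with earlier results of these data known. All 10 genes had a row of their own among the 19938 genes measured. They were measured in tumors of Renca cells, a mouse line of renal carcinoma from the BALB/c strain, on whole-transcript Affymetrix Mouse Gene 1.0 ST arrays. The intrakidney group held 3 tumors grown after injection of the cells into the outer cortex of the kidney, and the subcutaneous group held 3 tumors grown after injection under the skin. Every host was a BALB/c mouse, all tumors were frozen on day 12, both groups came from the same cell line, and no normal kidney or skin was among the samples. The sources used here do not give the age of the mice. Each tumor came from a separate mouse, and each value below is a log2 RMA intensity of bulk tumor RNA, in which fewer cells of a type and less RNA per cell cannot be told apart.

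Most of these proteins bind fibrillar collagen and govern how fibrils thicken, space and cross-link, and several also bind growth factors or receptors. Many carry chondroitin, dermatan or keratan sulfate chains, though asporin, the product of Aspn, usually carries none. Aspn, Dcn and Bgn form class I of the family, Lum, Fmod, Prelp, Kera and Omd form class II, and Ogn and Epyc belong to class III. In most tissues the main sources are fibroblasts and other connective tissue cells, and in tumors they are part of the stroma laid down around the cancer cells.

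Several members lie side by side in the mouse genome. In the RefSeq gene table of assembly GRCm38.p6, Aspn, Omd and Ogn follow each other as neighbouring protein-coding genes, as do Dcn, Lum, Kera and Epyc, while Prelp and Fmod are neighbours and Bgn lies apart on the X chromosome. The promoters of Aspn, Omd and Ogn are shown because Aspn passed the test and its neighbours did not. Each stretch runs 5′ to 3′ from 250 bases before the gene's start to 50 bases from it, and comes from RefSeq on build GRCm38.p6. The windows are chr13:49544193-49544492 for Aspn, chr13:49582212-49582511 for Omd and chr13:49607765-49608064 for Ogn, all on the + strand. Capitals mark matches, on either strand, to 5 motifs: for the TATA box the letters TATAAA, for the E-box CANNTG, for AP-1 TGANTCA, for TEAD GGAATG and for the GC box GGGCGG. Overlapping matches run together.
Aspn: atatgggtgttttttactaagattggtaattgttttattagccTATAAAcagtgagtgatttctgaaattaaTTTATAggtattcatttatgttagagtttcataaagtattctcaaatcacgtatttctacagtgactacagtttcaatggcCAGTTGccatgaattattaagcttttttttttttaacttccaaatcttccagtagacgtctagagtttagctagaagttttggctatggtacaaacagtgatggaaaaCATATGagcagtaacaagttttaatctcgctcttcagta
Omd: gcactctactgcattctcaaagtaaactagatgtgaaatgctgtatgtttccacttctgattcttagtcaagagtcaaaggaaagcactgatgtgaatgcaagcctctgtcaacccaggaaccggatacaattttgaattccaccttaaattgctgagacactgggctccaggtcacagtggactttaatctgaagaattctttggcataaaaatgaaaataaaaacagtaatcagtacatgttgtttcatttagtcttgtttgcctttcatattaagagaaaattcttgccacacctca
Ogn: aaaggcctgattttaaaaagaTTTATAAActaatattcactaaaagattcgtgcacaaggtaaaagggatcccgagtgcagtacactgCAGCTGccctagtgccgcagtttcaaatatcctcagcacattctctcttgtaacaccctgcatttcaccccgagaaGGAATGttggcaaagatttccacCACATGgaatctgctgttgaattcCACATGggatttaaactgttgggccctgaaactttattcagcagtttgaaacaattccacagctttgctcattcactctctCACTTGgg

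The Aspn window held TATAAA at 2 places, starting at positions -207 and -178 from the start site, and CANNTG at 2 places. The Omd window held no match to any of the 5 motifs. The Ogn window held 2 overlapping matches to TATAAA, 4 to CANNTG and 1 to GGAATG. Of 32851 promoter windows of the same length, 13.6% held TATAAA, 72.3% CANNTG, 7.81% TGANTCA, 14.7% GGAATG and 35.7% GGGCGG. GC content was 31% in the Aspn window, 37.7% in the Omd window and 42.3% in the Ogn window, below the median of 52.7% over all windows. By contrast, the Bgn window (chrX:73483351-73483650) had 63.7% GC and 3 matches to GGGCGG. A promoter was at hand for 8 of the 10 genes, which left out Dcn and Lum, and these matches are descriptions of letters in a window.

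The differences of the family ran both ways between the sites of growth. Aspn was lower in intrakidney tumors, Lum lay lower without passing the test, and Dcn and Bgn, the members of Aspn's own class, overlapped between the groups. With limma and Benjamini-Hochberg adjustment over all genes, 1 of the 10 members (Aspn) passed an adjusted p of 0.05, against 0.231% of all genes (0.1% in the lower direction). At an unadjusted p of 0.05, 3 members passed (Aspn, Lum and Fmod), all of them lower, against 8.43% of all genes (3.71% in the lower direction). In these 3 genes every intrakidney tumor lay below every subcutaneous tumor, as in 6.53% of all genes, and 0 members had their groups apart in the higher direction, against 8.41% of all genes. Of the 10 members 6 lay lower and 4 higher in intrakidney tumors, and their median log2 difference was -0.07, beside -0.0058 for all genes. Because the members and the lists below were chosen with earlier results of these data known, counts beside shares of all genes are descriptions only.

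**Figure D1:**
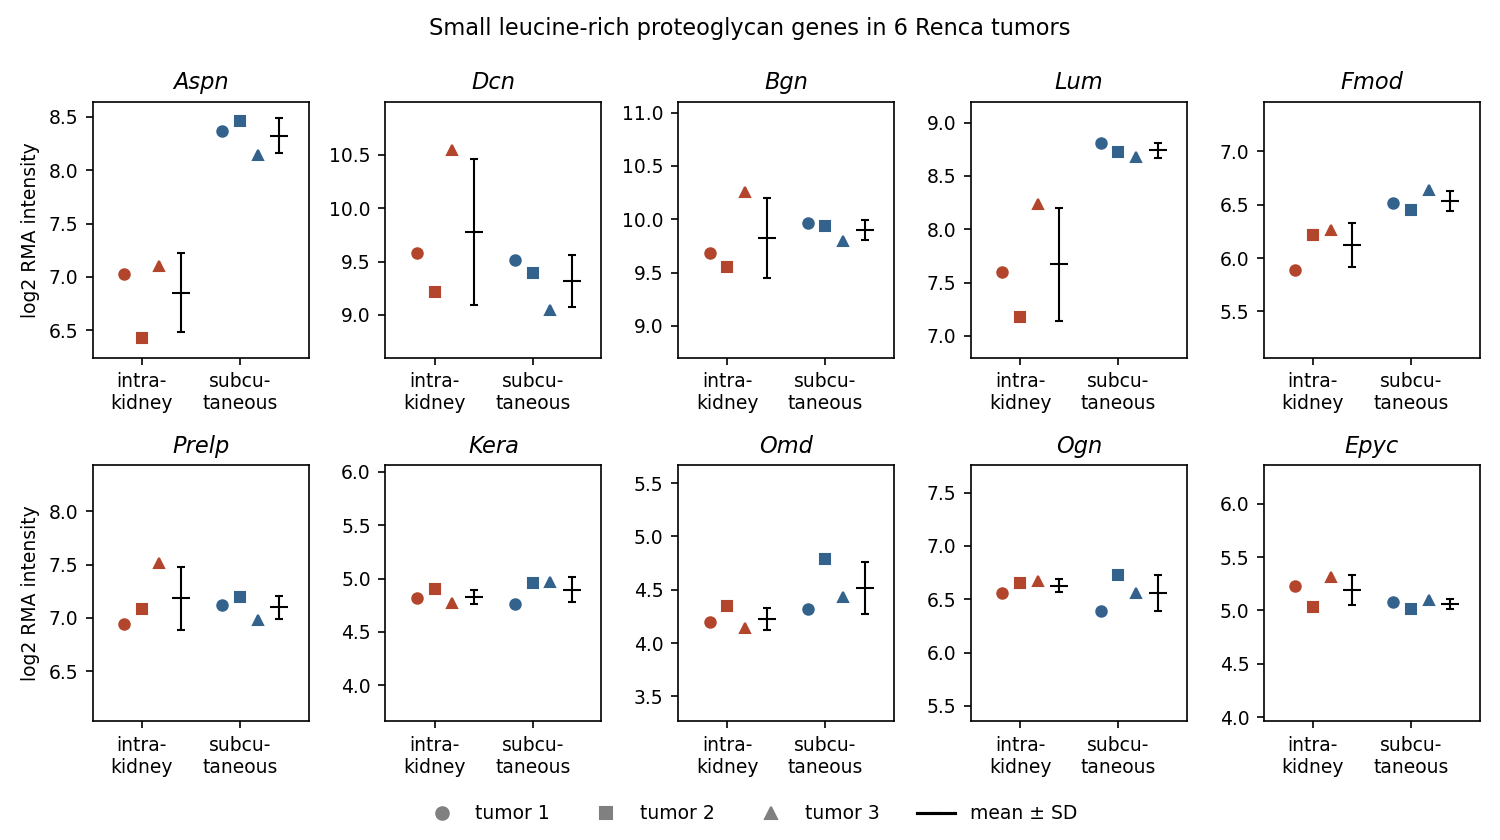
Log2 RMA intensity (y axis) of the 10 genes in 3 intrakidney tumors (red, left) and 3 subcutaneous tumors (blue, right), with symbols for tumors 1, 2 and 3 and black bars for mean ± SD. Every panel spans the same number of log2 units around its own centre, and the groups stand apart for Aspn, Lum and Fmod.

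Among class I genes, Aspn encodes a collagen-binding protein that also binds TGF-beta and is made by fibroblasts of ligament and of tumor stroma. Aspn measured 7.03, 6.42 and 7.10 in intrakidney tumors 1, 2 and 3, against 8.37, 8.46 and 8.14 in subcutaneous tumors 1, 2 and 3. The groups were separated by a gap of 1.04 log2 units, which was wider than the range within either group (0.68 in intrakidney and 0.32 in subcutaneous tumors). Aspn fell by 1.47 ± 0.18 on the log2 scale (SE, 95% interval -1.90 to -1.05, limma adjusted p = 0.0336), so that its intensity was 2.77-fold higher in subcutaneous tumors. Of all 19938 genes, 4 had a lower difference. The call for Aspn was lost without subcutaneous tumor 1, 2 or 3 (adjusted p = 0.207, 0.186 and 0.1) and without intrakidney tumor 1 (adjusted p = 0.0636), while the difference stayed between -1.60 and -1.26 without each array in turn.

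Dcn encodes decorin, which coats collagen fibrils and binds TGF-beta and receptor tyrosine kinases. Dcn measured 9.58, 9.22 and 10.55 in the intrakidney tumors, against 9.52, 9.39 and 9.05 in the subcutaneous tumors. Intrakidney tumor 3 was the highest of all arrays, and the other two intrakidney tumors lay among or close to the subcutaneous values. The log2 difference was 0.46 ± 0.31 (SE, 95% interval -0.27 to 1.19, limma adjusted p = 0.781), and it was 0.08 without intrakidney tumor 3 and 0.02 with the mean of proximal tubule markers as a covariate. Bgn encodes biglycan, a collagen-binding proteoglycan that is also a ligand of the Toll-like receptors TLR2 and TLR4. Bgn measured 9.68, 9.55 and 10.25 in the intrakidney tumors, against 9.96, 9.94 and 9.79 in the subcutaneous tumors. Here too intrakidney tumor 3 was the highest array and intrakidney tumor 2 the lowest, so that the subcutaneous values lay inside the intrakidney range. The log2 difference of Bgn was -0.07 ± 0.17 (SE, 95% interval -0.48 to 0.33, limma adjusted p = 0.960).

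Among class II genes, Lum encodes lumican, which sets the spacing of collagen fibrils in cornea and skin. Lum measured 7.60, 7.18 and 8.23 in the intrakidney tumors, against 8.81, 8.73 and 8.68 in the subcutaneous tumors. All intrakidney tumors were lower, by a gap of at least 0.44 log2 units, but they spread far more than the subcutaneous tumors (SD 0.53 and 0.07, n = 3 each). The log2 difference of Lum was -1.07 ± 0.23 (SE, 95% interval -1.61 to -0.52), and 9 of all genes had a lower one. It did not pass the test over all genes (limma adjusted p = 0.204). Lum passed without intrakidney tumor 3 (difference -1.35, adjusted p = 0.0293), so the call turned on the tumor in which Lum was least low.

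Fmod encodes fibromodulin, which takes part in collagen cross-linking in tendon and other dense tissue. Fmod measured 5.89, 6.22 and 6.26 in the intrakidney tumors, against 6.52, 6.45 and 6.64 in the subcutaneous tumors. The groups did not overlap, with a gap of 0.19 log2 units, and the difference was -0.41 ± 0.11 (SE, 95% interval -0.68 to -0.15, limma adjusted p = 0.352). Prelp encodes a heparan sulfate-binding protein that links basement membranes to connective tissue. Prelp measured 6.95, 7.09 and 7.52 in the intrakidney tumors, against 7.12, 7.20 and 6.98 in the subcutaneous tumors. Intrakidney tumor 3 was the highest array and the others overlapped, with a difference of 0.08 ± 0.15 (SE, 95% interval -0.26 to 0.43).

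The remaining members are known from specialised tissues and were dim. Fmod, Ogn, Omd, Kera and Epyc had a mean under 6.82, the 40th percentile of all genes, and these files give no detection call that would tell a dim gene from background. Omd, which encodes osteoadherin of bone, measured 4.19, 4.34 and 4.14 in the intrakidney tumors, against 4.32, 4.79 and 4.43 in the subcutaneous tumors. Its groups overlapped by a narrow margin between intrakidney tumor 2 and subcutaneous tumor 1 (difference -0.29 ± 0.13, SE, 95% interval -0.59 to 0.01, limma adjusted p = 0.619). Kera, which encodes keratocan of the cornea, ranged from 4.77 to 4.90 in the intrakidney tumors and from 4.76 to 4.96 in the subcutaneous tumors. Ogn, which encodes osteoglycin, a small matrix protein of bone, vessel wall and other connective tissue, ranged from 6.56 to 6.67 in the intrakidney tumors and from 6.39 to 6.73 in the subcutaneous tumors. Epyc, which encodes epiphycan of growth plate cartilage, ranged from 5.03 to 5.31 in the intrakidney tumors and from 5.01 to 5.10 in the subcutaneous tumors. The log2 differences of Kera, Ogn and Epyc were -0.07, 0.07 and 0.13, with 95% intervals of -0.26 to 0.13, -0.16 to 0.30 and -0.08 to 0.34. RMA compresses changes of dim genes. These intervals hold for 1 gene at a time and are not a limit of detection. With 3 arrays a group, Lum (-1.07) and Fmod (-0.41) had intervals below 0 without passing the test over all genes.

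**Figure D2:**
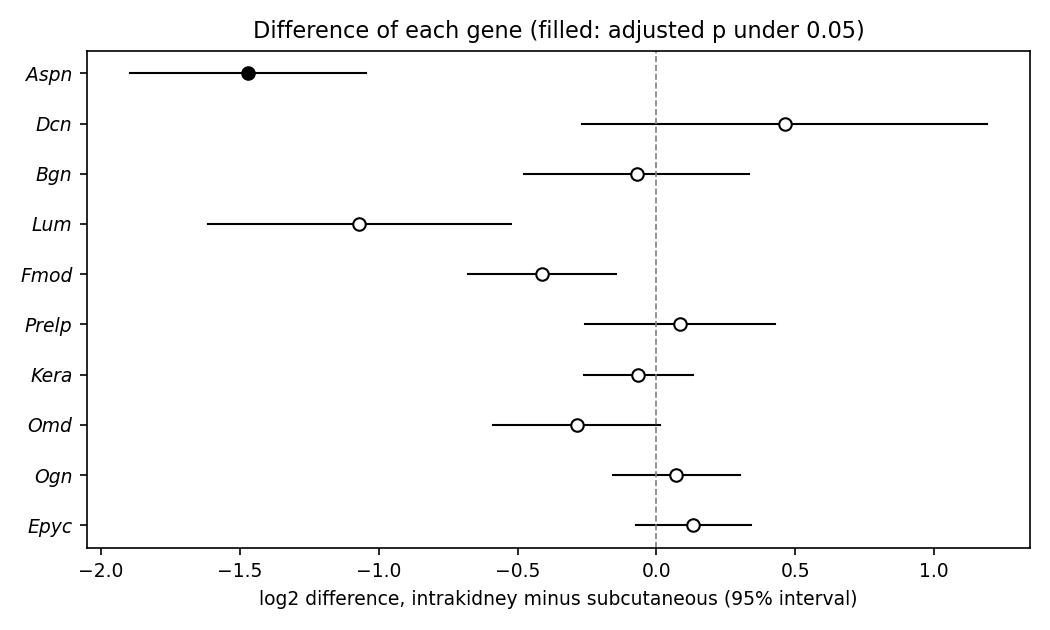
Log2 difference, intrakidney minus subcutaneous (x axis), of the 10 genes (rows), with 95% intervals from the moderated fit as lines and a filled point for an adjusted p under 0.05. Aspn at -1.47 is filled, Lum and Fmod have intervals below 0 with open points, and the other 7 intervals include 0.

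The intrakidney tumors also differed among themselves in these genes. Intrakidney tumor 3 held the highest intrakidney value of 8 of the 10 members, the exceptions being Omd and Kera, whereas it held the highest intrakidney value of 24.2% of all genes. The SD was larger in intrakidney than in subcutaneous tumors for 7 members, beside 59.4% of all genes, and the ratio of the SDs was highest for Lum (7.83). Fibroblast markers, of which Col1a1 and Col3a1 are also counted with the collagens, were mixed in this respect. Intrakidney tumor 3 had the highest intrakidney value of 6 of the 10 markers (Col1a1, Col3a1, Pdgfra, Pi16, Mfap5 and Dpt) and not of the other 4 (Lrrc15, Thy1, Fap and Pdgfrb). The mean over 10 of 10 listed markers was 7.94, 7.88 and 8.38 in the intrakidney tumors, against 8.38, 8.35 and 8.25 in the subcutaneous tumors, and the summed log2 values ranged from 78.8 to 83.8 and from 82.5 to 83.8. Between the sites, 6 markers lay lower and 4 higher in intrakidney tumors. Lrrc15 passed at -1.34 (limma adjusted p = 0.00475), 1 of 10 against 0.1% of all genes called lower. Groups stood apart in the lower direction for 3 (Lrrc15, Col1a1 and Thy1), against 6.53% of all genes, and for 0 in the higher direction. Dpt, the gene of dermatopontin, a decorin-binding matrix protein, measured 6.38, 6.14 and 7.43 in the intrakidney tumors, against 6.53, 6.63 and 6.02 in the subcutaneous tumors. Pdgfra, a growth factor receptor of fibroblasts, measured 7.16, 6.95 and 7.49 in the intrakidney tumors, against 7.72, 7.57 and 7.46 in the subcutaneous tumors. Pdgfrb, a growth factor receptor of fibroblasts and pericytes, measured 9.30, 9.63 and 9.51 in the intrakidney tumors, against 9.60, 9.53 and 9.49 in the subcutaneous tumors, and was lowest in intrakidney tumor 1.

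The mean of kidney proximal tubule markers was likewise highest in intrakidney tumor 3. Over 14 of 15 listed genes it was 6.42, 6.84 and 7.49 in the intrakidney tumors, against 6.36, 6.40 and 6.54 in the subcutaneous tumors. Their summed log2 values ranged from 89.9 to 104.8 in intrakidney and from 89.1 to 91.5 in subcutaneous tumors. Of these markers 13 lay higher in intrakidney tumors and 1, Aqp1, lay lower. Aqp1 measured 8.60, 7.87 and 7.94 in the intrakidney tumors, against 9.16, 9.07 and 9.29 in the subcutaneous tumors, and was highest of the intrakidney tumors in number 1. The part of fibroblast content in the differences of Aspn and Lum was not tested. With the tubule level as a covariate, the difference of Aspn was -1.52 (adjusted p = 0.178) and that of Lum -1.38 (adjusted p = 0.207). With intrakidney tumors 2 and 3 left out, Aspn was at -1.29 and Lum at -1.14, and Prelp turned to -0.15. That fit took its spread from the subcutaneous tumors alone, so no p is given. For Lum the SD was 0.53 in intrakidney and 0.07 in subcutaneous tumors.

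Because single arrays carried high or low values of several members at the same time, pairs of genes were compared within each array. Such a difference of log2 values cancels what an array changes equally in both genes, and it shows unequal change without showing which gene moved. For Aspn and Dcn of class I, Aspn minus Dcn was -2.55, -2.79 and -3.44 in the intrakidney tumors, against -1.14, -0.93 and -0.91 in the subcutaneous tumors. The groups differed by -1.93 and stood far apart, more widely than for Aspn alone. Lum and Dcn are neighbouring genes, a pair chosen after the values were seen. Lum minus Dcn was -1.98, -2.04 and -2.31 in the intrakidney tumors, against -0.70, -0.66 and -0.37 in the subcutaneous tumors, a group difference of -1.53. The SD of this within-array difference was 0.18 in both groups. The SD of Lum itself was 0.53 in intrakidney and 0.07 in subcutaneous tumors, and that of Dcn 0.69 and 0.24. The difference thus varied less than either gene in intrakidney tumors, but more than Lum in subcutaneous tumors.

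**Figure D3:**
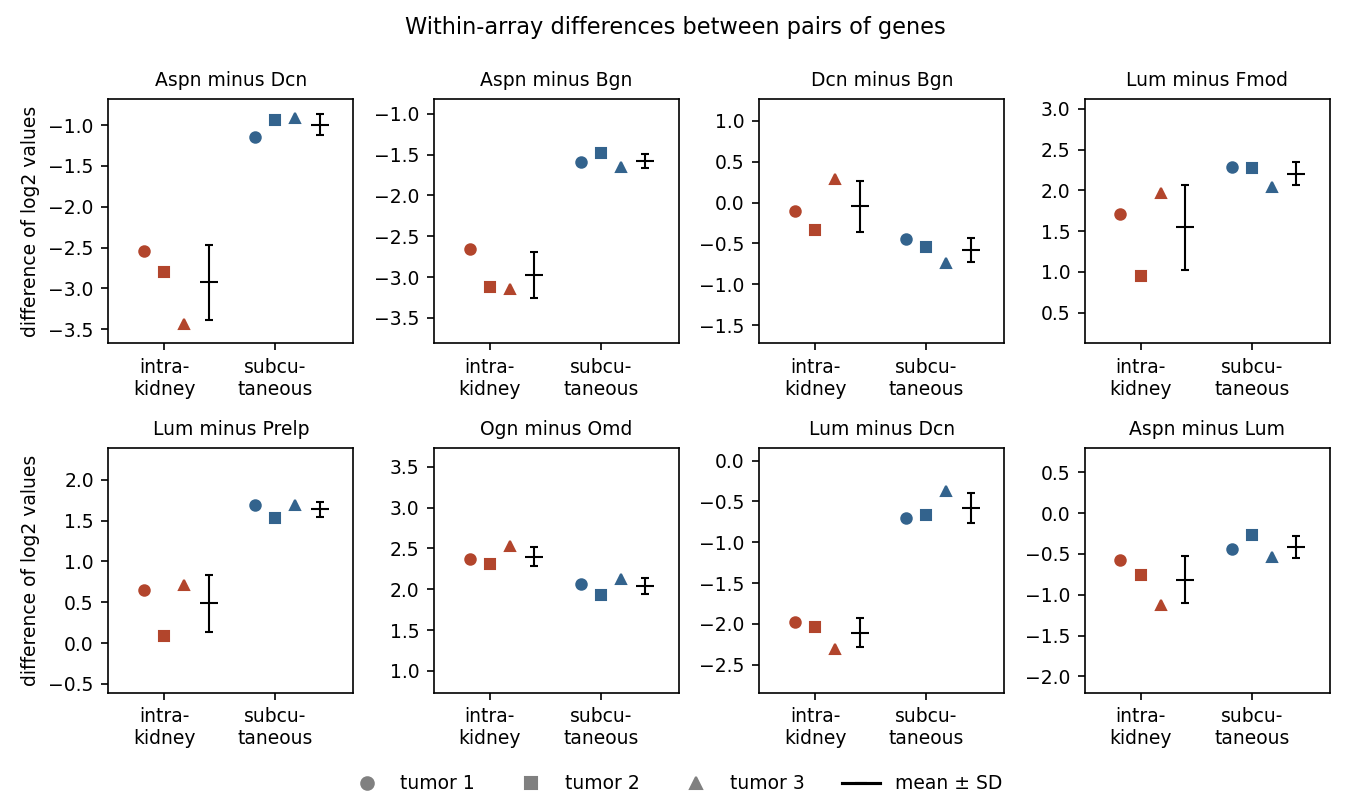
Within-array difference of log2 values (y axis) for 8 pairs of genes in 3 intrakidney tumors (red, left) and 3 subcutaneous tumors (blue, right), with black bars for mean ± SD. The groups do not overlap in any of the 8 panels, and Aspn minus Dcn and Lum minus Dcn show the widest gaps.

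The group difference was -1.40 for Aspn minus Bgn, 0.53 for Dcn minus Bgn, -0.66 for Lum minus Fmod, -1.15 for Lum minus Prelp, 0.36 for Ogn minus Omd and -0.40 for Aspn minus Lum, the last also chosen after the values were seen. Each of the 8 pairs reached an exact two-sided permutation p of 0.1, the smallest that 3 arrays against 3 allow, and 0.1 after Benjamini-Hochberg adjustment over the 8 pairs, so that none can pass a threshold of 0.05. Aspn and Lum thus lay lower relative to Dcn in all 3 intrakidney tumors, intrakidney tumor 3 included. In that tumor Aspn, Dcn, Bgn and Lum were all at their intrakidney maximum. The same tumor had the most negative Aspn minus Dcn, Lum minus Dcn and Aspn minus Lum of all arrays.

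The genes whose profile over the 6 arrays lay closest to that of Aspn were sought by the root mean square distance between centred log2 values. The 5 nearest were Akr1c18, a progesterone-inactivating reductase gene (distance 0.112), Postn, the gene of the collagen-binding glycoprotein periostin (0.210), C1qtnf3 (0.217), Lrrc15, a leucine-rich repeat membrane protein gene of activated fibroblasts (0.257), and Thbs2, which encodes thrombospondin 2 (0.257). Akr1c18 measured 9.43, 8.84 and 9.48 in the intrakidney tumors, against 10.49, 10.65 and 10.39 in the subcutaneous tumors, and like Aspn it was lowest in intrakidney tumor 2. Lrrc15 measured 6.65, 6.60 and 6.52 in the intrakidney tumors, against 8.03, 7.87 and 7.90 in the subcutaneous tumors, without that dip. Among all genes, 5 were nearer to Aspn than Lum (distance 0.271). Of the other members, Fmod had 238 genes nearer than itself, Omd 683 and Bgn 2785, and Dcn was among the most distant genes, with 19680 nearer. These distances describe 6 arrays in which the group difference itself is a large part of the profile.

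Of 7 further family genes with a row (of 8 listed), Optc, Podnl1, Chadl, Ecm2, Podn, Chad and Nyx, none passed the limma test. An unadjusted p of 0.05 was reached by 0 of them, against 8.43% of all genes. Ecm2, which lies next to Aspn on the side away from Omd, differed by 0.06 ± 0.08 and Optc, which lies next to Prelp, by -0.17 ± 0.11 (SE). Podn, the gene of podocan, differed by 0.07 and Podnl1, a podocan-like gene, by -0.07. The median over these genes was -0.02.

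The enzymes that build the sugar chains showed small differences. Of 22 genes of chondroitin and dermatan sulfate synthesis, 0 passed the limma test. An unadjusted p of 0.05 was reached by 2, against 8.43% of all genes. The median log2 difference over the 22 genes was 0.01. Those with the lowest p were Dsel, a dermatan sulfate epimerase-like gene, at -0.32 (adjusted p = 0.365), the chondroitin sulfotransferase gene Chst11 at 0.27 (adjusted p = 0.539), the dermatan sulfotransferase gene Chst14 at -0.14 and Csgalnact2, which starts chondroitin chains, at -0.14. Of 12 genes of keratan sulfate synthesis and its linkage, 0 passed and 0 reached an unadjusted p of 0.05, with a median of 0.04. Fut8, the core fucosyltransferase gene, stood at 0.19, the sialyltransferase gene St3gal3 at -0.13, and the sulfotransferase genes Chst4 and Chst5 at -0.14 and -0.12.

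The collagens that the proteins bind lay lower in intrakidney tumors. All 13 listed genes had a negative difference, with a median of -0.55, and in 9 of them the groups did not overlap in that direction, against 6.53% of all genes. The genes that passed, 3 of 13 against 0.1% of all genes called lower, were the 3 chains of collagen VI, a microfibril that binds decorin and biglycan: Col6a1 fell by 0.84 ± 0.09, Col6a3 by 0.73 ± 0.08 and Col6a2 by 0.60 ± 0.07 on the log2 scale (SE, limma adjusted p = 0.0191, 0.0228 and 0.0280). Col6a1 measured 9.11, 8.88 and 9.10 in the intrakidney tumors, against 9.81, 9.89 and 9.92 in the subcutaneous tumors, a narrow spread on both sides. Col12a1, a collagen on the surface of fibrils, differed by -0.55 (adjusted p = 0.0967). Col1a1, the main fibrillar collagen chain, measured 10.93, 10.73 and 11.78 in the intrakidney tumors, against 12.19, 12.06 and 12.03 in the subcutaneous tumors (adjusted p = 0.300). Like Lum, it was below all subcutaneous tumors in every intrakidney tumor and least so in intrakidney tumor 3. Col3a1, a further fibrillar collagen, overlapped between the groups (difference -0.45, adjusted p = 0.695). The count of 3 was 5 without intrakidney tumor 3, 1 without intrakidney tumor 1 or 2 and 0 without any 1 of the subcutaneous tumors. It was also 0 with the tubule level as a covariate, with replicate number as a block and with every row tested.

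Enzymes that process or degrade matrix proteoglycans went both ways. Of 17 genes 1 passed the limma test, against 0.13% of all genes called higher. This was Adamts5, an aggrecanase gene, which rose by 0.71 log2 units (SE 0.07, limma adjusted p = 0.0141). Adamts5 measured 10.76, 10.68 and 10.70 in the intrakidney tumors, against 10.06, 9.97 and 9.97 in the subcutaneous tumors. Its relative Adamts1 differed by 0.52 (adjusted p = 0.0533). Mmp2, a gelatinase gene, differed by -0.74 (adjusted p = 0.0947) and the serine protease gene Htra1 by -0.41 (adjusted p = 0.0891). In 8 of the 17 genes the intrakidney tumors were all below the subcutaneous tumors and in 3 all above, where 14.9% of all genes had groups that did not overlap. Bmp1, a protease that trims the propeptide of biglycan, differed by -0.11 ± 0.07 (SE, adjusted p = 0.757), chosen after its values were seen. The call for Adamts5 was lost without any 1 of the subcutaneous tumors. It was also lost with the tubule level as a covariate, with replicate number as a block and with every row tested.

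Ligands and receptors that bind these proteins showed 0 genes past the limma test among 27, with a median of -0.004. At an unadjusted p of 0.05 there were 5, against 8.43% of all genes. The nearest to the threshold was Cd14, the lipopolysaccharide co-receptor gene, which also serves biglycan signalling, at 0.44 (adjusted p = 0.0744). Bmpr1a, a BMP receptor gene, stood at -0.26, Kdr, the VEGF receptor gene of endothelium, at 0.37 and Tgfbr1, a TGF-beta receptor gene, at -0.23. Of the ligands and receptors most tied to the family, chosen after their values were seen, Tgfb1 differed by -0.003, Tlr2 by 0.15 and Tlr4 by -0.05. Among 26 genes of other proteoglycan core proteins, 1 passed, against 0.13% of all genes called higher. This was Esm1, the endocan gene of endothelium, which rose by 0.89 ± 0.11 (SE, limma adjusted p = 0.0313). Esm1 passed no longer without intrakidney tumor 2 or 3 or any 1 of the subcutaneous tumors. Prg4, the lubricin gene of joint and serosal surfaces, measured 8.02, 6.67 and 7.09 in the intrakidney tumors, against 5.55, 5.42 and 5.47 in the subcutaneous tumors (difference 1.78, adjusted p = 0.0958). The cell surface proteoglycan genes Sdc4 and Gpc4 differed by 0.28 and 0.33 (adjusted p = 0.379 and 0.453).

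**Figure D4:**
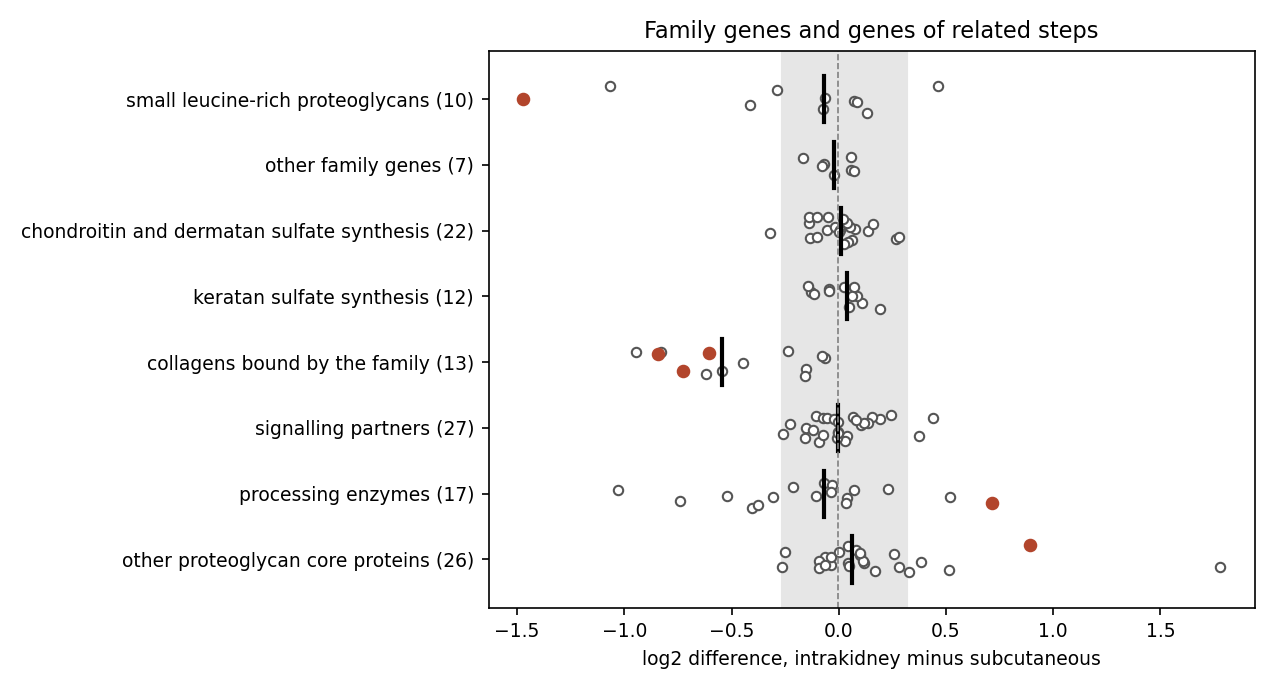
Log2 difference, intrakidney minus subcutaneous (x axis), of each gene (points) in the 10-gene family and 7 related lists (rows, with the number of genes), with filled points for an adjusted p under 0.05, black bars for list medians, a dashed line for the median of all genes and a grey band for the middle 95% of all genes (-0.27 to 0.32). The collagens lie to the left as a list, whereas the family is spread from Aspn at -1.47 to Dcn at 0.46.

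Markers of several other cell types differed between the sites, and their part in the differences of the family was not tested. All 7 adipocyte markers lay higher in intrakidney tumors, with means of 7.58, 7.42 and 7.61, against 6.30, 6.50 and 6.35 in the subcutaneous tumors. Of these, 3 passed the limma test, against 0.13% of all genes called higher: the carbonic anhydrase gene Car3 with a difference of 3.41, the fatty acid carrier gene Fabp4 with 2.08 and the lipid droplet gene Cidec with 0.66 (adjusted p = 0.00632, 0.00637 and 0.0280). All 6 endothelial markers lay higher, in 5 of them with groups that did not overlap, against 8.41% of all genes, and Emcn, a capillary sialomucin gene, passed with a difference of 0.72 (limma adjusted p = 0.0460). Endothelial means were 8.38, 8.30 and 8.36 in the intrakidney tumors, against 8.09, 7.95 and 8.08 in the subcutaneous tumors. All 5 markers of mesothelium, the lining of body cavities, lay higher, with 0 past the limma test. An unadjusted p of 0.05 was reached by 2, against 8.43% of all genes. Mesothelial means were 6.79, 6.95 and 6.97 in the intrakidney tumors, against 6.48, 6.48 and 6.64 in the subcutaneous tumors.

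The remaining marker lists described here had 0 genes past the limma test. All 9 skeletal muscle markers lay lower, with a median difference of -0.12. An unadjusted p of 0.05 was reached by 1 of the 9, against 8.43% of all genes. Of 8 measured genes of tendon, cartilage and bone, where several family members are abundant, 0 passed the limma test. An unadjusted p of 0.05 was reached by 1 (Ibsp, the bone sialoprotein gene), against 8.43% of all genes. The mean over the 8 genes was 6.51, 6.84 and 6.73 in the intrakidney tumors, against 6.71, 6.74 and 6.90 in the subcutaneous tumors. Markers of pericytes and smooth muscle had means of 8.25, 8.29 and 8.16 in the intrakidney tumors, against 8.14, 8.10 and 8.18 in the subcutaneous tumors. Of these 7 genes, 5 lay higher and 2 lower, and 2 reached an unadjusted p of 0.05 (Acta2 at 0.37 and Tagln at 0.39). Groups stood apart in the higher direction for 3 (Acta2, Tagln and Myh11), against 8.41% of all genes, and for 0 in the lower direction. Markers of Renca and other epithelial cells had means of 9.72, 9.91 and 9.90 in the intrakidney tumors, against 9.85, 9.89 and 9.92 in the subcutaneous tumors, 6 of 6 measured. Of these, Cdh1, the E-cadherin gene, measured 9.10, 9.53 and 9.30 in the intrakidney tumors, against 9.78, 9.91 and 9.79 in the subcutaneous tumors, without overlap (difference -0.52 ± 0.11, SE, limma adjusted p = 0.209). The other markers, Krt8, Krt18, Krt19, Pax8 and Pax2, differed by -0.09 to 0.25 with overlapping groups. Keratinocyte markers, 6 of 7 measured, summed to between 38.9 and 39.8 log2 units in the intrakidney tumors and to between 38.7 and 40.1 in the subcutaneous tumors.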

How the data were processed

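RNA of 3 intrakidney and 3 subcutaneous tumors was measured, 1 array each. The deposited values are log2 intensities for which the submitters' processing notes name RMA and affy as the authors' tools. Tool versions, probe set definition and whether the arrays were normalized jointly are not given in the sources used here. The log2 scale was read from the values (2.31 to 15.07), and array medians were 7.08 to 7.11. Of 35512 rows, the platform annotation paired 21789 with 1 gene, 1621 with several and 12102 were not named here. For each gene the row with the highest mean was kept, which left 19938 genes, and each of the 10 members had 1 row. No dim genes were removed.

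The fit over all genes used lmFit and eBayes of limma 3.58.1 (R 4.3.3, two-sided), adjusted by Benjamini-Hochberg over all genes at 0.05, and tested on simulated data. All differences are intrakidney minus subcutaneous. Within-array pairs were compared by exact permutation (scipy 1.17.1). All members were named, and of each list the members past the threshold and up to 4 with the lowest adjusted p. The members and lists were chosen with earlier results of these data known. The number of arrays limits the precision. Other settings were normalization, a dim-gene filter, an offset, every row, row averaging, variance prior, replicate block, tubule covariate and leaving out arrays.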

Additional observations from a re-analysis of the deposited data

How the results depend on the processing

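The count of 46 genes past the limma threshold was 101 without dim genes, 74 with an offset of 16, 138 with an intensity trend and robust prior, 10 with tubule markers as a covariate, 30 without intrakidney tumors 2 and 3 together, and between 2 and 33 without each array in turn. It was 0 when every row was tested (2206 rows at an unadjusted p of 0.05) and 0 with the replicate block (1825 genes). The cause was not tested, except that testing every row adjusts over 35512 features. The family count of 1 was 0 with every row and with the replicate block (3 and 4 members at an unadjusted p of 0.05). It was 0 with the tubule covariate (3 members) and between 0 and 2 without each array in turn. It was 1, each time Aspn, with quantile normalization, median centring, without dim genes, with the offset, with averaged rows and with the intensity trend. Counts are not given without intrakidney tumors 2 and 3 together, a fit that leaves 1 intrakidney tumor. For Aspn, adjusted p was 0.165 with every row and 0.146 with the replicate block. It ranged from 0.00453 to 0.207 over the settings that leave more than 1 tumor in each group. The difference of Aspn was negative in all 16 settings. Deviations from the group mean correlated at 0.374, -0.159 and 0.104 between same-numbered tumors 1, 2 and 3. Between differently numbered tumors the correlations ranged from -0.441 to 0.429. With 3 arrays a group, these values cannot decide whether the replicate number marks a pairing.

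The family median stayed negative, from -0.20 with the tubule covariate to -0.02 without intrakidney tumor 2. Signs turned for members near 0: without each array in turn, Bgn ranged from -0.284 to 0.0681 (also above 0, at 0.0014, without intrakidney tumor 1), Ogn from -0.0122 to 0.156 and Prelp from -0.0825 to 0.204, and Prelp was -0.153 without intrakidney tumors 2 and 3 together and -0.158 with the tubule covariate. No within-array pair turned its sign in the settings run on pairs. Dim members could show compressed differences.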
